A study of Mus musculus with 10 samples.

Results

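Ventral hippocampus (vHpc) RNA of E2-treated OVX Het-Met mice was compared with that of E2-treated OVX WT mice in 5 of the 10 libraries of the series, namely the Het-Met E2 libraries 1, 2 and 3 and the WT E2 libraries 1 and 2. WT mice were C57/BL6 females with both copies of Bdnf intact, and Het-Met mice were females heterozygous for the BDNF Val66Met knock-in. All mice were ovariectomized (OVX) at an age of 70 to 80 days and recovered for 2 weeks. The E2-treated mice then drank estradiol (E2) at 300 nM, about 0.7 µg per day, in 0.1% ethanol for 6 weeks. The 2 WT and 3 Het-Met libraries of the vehicle arm, from OVX mice given 0.1% ethanol alone, were used for the same genotype contrast without E2 and for the shared estimate of the spread. Each library held RNA pooled from 2 animals, so that a value is an average of animals and the spread between single mice was not seen. Of 24421 gene symbols, 15081 had a mean of at least 0.5 CPM (reads scaled to a fixed library total) over the 10 libraries and were compared. The reads on genes numbered 22287412 and 23267410 in the WT E2 libraries and 20435141, 21692470 and 21085953 in the Het-Met E2 libraries. Those of the vehicle arm numbered 21614299 and 20179344 in WT and 21079441, 19820184 and 21562281 in Het-Met.

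BDNF is a secreted neurotrophin that acts through the receptor TrkB on synapses and dendrites, and the Met variant changes its prodomain and lowers its activity-dependent release. The vHpc is the part of the hippocampus tied most closely to stress and emotion. Estradiol acts there through nuclear and membrane receptors, and it is known to raise Bdnf expression in hippocampal neurons. The comparison asks how the vHpc transcriptome differs between genotypes once E2 has been restored.

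The tissue label was checked first. The 10 neuronal markers summed to 8367 and 8582 CPM in the WT E2 libraries and to 8620.0, 9145 and 8826 CPM in the Het-Met E2 libraries. Dentate granule cell markers summed to between 236 and 270.3 CPM and CA1 markers to between 656 and 752 CPM in these 5 libraries, so that defining hippocampal genes were present in each. The allele is a coding change, which gene-level reads do not show, and no value here checks the genotype labels.

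Markers of tissue next to the vHpc were unequal between the libraries. The 18 choroid plexus markers summed to 3764 and 2801 CPM in the WT E2 libraries and to 2332, 818 and 557 CPM in the Het-Met E2 libraries. Transthyretin (Ttr) made up 60.7% of the reads of this list over the 10 libraries. All 3 Het-Met libraries lay below both WT libraries, and Het-Met library 1 lay closer to the WT libraries than to its own group. Pituitary markers, led by prolactin (Prl), summed to 121 and 30.0 CPM in WT and to 49.3, 210.4 and 2.42 CPM in Het-Met mice under E2, and these groups overlapped. Of the red blood cell markers Alas2 alone passed the filter, and 4 were listed at 0 in all 10 libraries.

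Bdnf (ENSMUSG00000048482.14, chromosome 2 of mm10, 109674700 to 109727007, plus strand) carries the allele. It had 34.7 and 44.0 CPM in E2-treated OVX WT mice and 33.5, 34.7 and 34.4 CPM in E2-treated OVX Het-Met mice. Both WT libraries lay above the 3 Het-Met libraries, but WT library 1 exceeded the highest of them by less than 0.1 CPM. The log2 fold change was -0.19 (standard error, SE, 0.11, limma adjusted p = 0.511), and under vehicle it was -0.29 (SE 0.11, limma adjusted p = 0.418). Without WT library 2 the difference under E2 was -0.02.

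At an adjusted p under 0.05 and a fold change above 1.3 (limma), 4 of the 15081 genes, or 0.0265%, differed between the genotypes under E2. Pla2g4e, Myoc and Gabra2 were higher in Het-Met mice (0.0199%) and Bmp6 was lower (0.00663%). At an unadjusted p under 0.05 without a fold limit, 1758 genes (11.7%) differed, 949 higher (6.29%) and 809 lower (5.36%). Under median-of-ratios scaling the share of higher genes among these moved from 54.0% to 42.3%, with 727 higher and 993 lower.

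Pla2g4e encodes a calcium-dependent cytosolic phospholipase A2 that forms the lipid precursors of N-acylethanolamines. It had 20.1 and 20.2 CPM in the WT E2 libraries and 35.4, 36.5 and 38.7 CPM in the Het-Met E2 libraries. The genotypes were far apart and the libraries within each were close. The log2 fold change was 0.85 (SE 0.11, limma adjusted p = 0.0204). Under vehicle it had 13.1 and 11.7 CPM in WT and 33.0, 25.3 and 30.5 CPM in Het-Met mice, a log2 fold change of 1.21 (limma adjusted p = 2.30e-04). Pla2g4e was the only gene called under vehicle (1 of 15081, 0.00663%), and it lies 10.4 Mb from Bdnf.

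Myoc encodes myocilin, a secreted glycoprotein of the extracellular matrix. Its level was 13.1 and 16.0 CPM in WT and 24.6, 23.4 and 26.2 CPM in Het-Met mice under E2. Every Het-Met library exceeded both WT libraries, with a log2 fold change of 0.75 (SE 0.11, limma adjusted p = 0.0356). Under vehicle the levels were 20.9 and 24.0 CPM in WT against 34.2, 33.4 and 30.9 CPM in Het-Met mice, a log2 fold change of 0.54 that was not called (limma adjusted p = 0.215).

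Gabra2 encodes the alpha-2 subunit of GABA-A receptors, the chloride channels of fast inhibition. It had 60.8 and 63.4 CPM in WT and 84.3, 103 and 98.7 CPM in Het-Met mice under E2. The groups did not overlap, and the log2 fold change was 0.61 (SE 0.09, limma adjusted p = 0.0418). Under vehicle it had 77.0 and 66.8 CPM in WT and 103, 102 and 91.1 CPM in Het-Met mice, a log2 fold change of 0.45 (limma adjusted p = 0.215).

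Bmp6, a secreted ligand of the transforming growth factor beta family, showed the opposite direction. It had 11.89 and 12.03 CPM in WT and 6.998, 5.67 and 6.54 CPM in Het-Met mice under E2, a log2 fold change of -0.86 (SE 0.13, limma adjusted p = 0.0418). The vehicle libraries held 6.89 and 7.63 CPM in WT and 8.06, 7.72 and 8.997 CPM in Het-Met mice, a log2 fold change of 0.17. The change of the genotype difference between treatments was -1.03 on the log2 scale and did not pass the threshold (limma adjusted p = 0.0584).

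**Figure D1:**
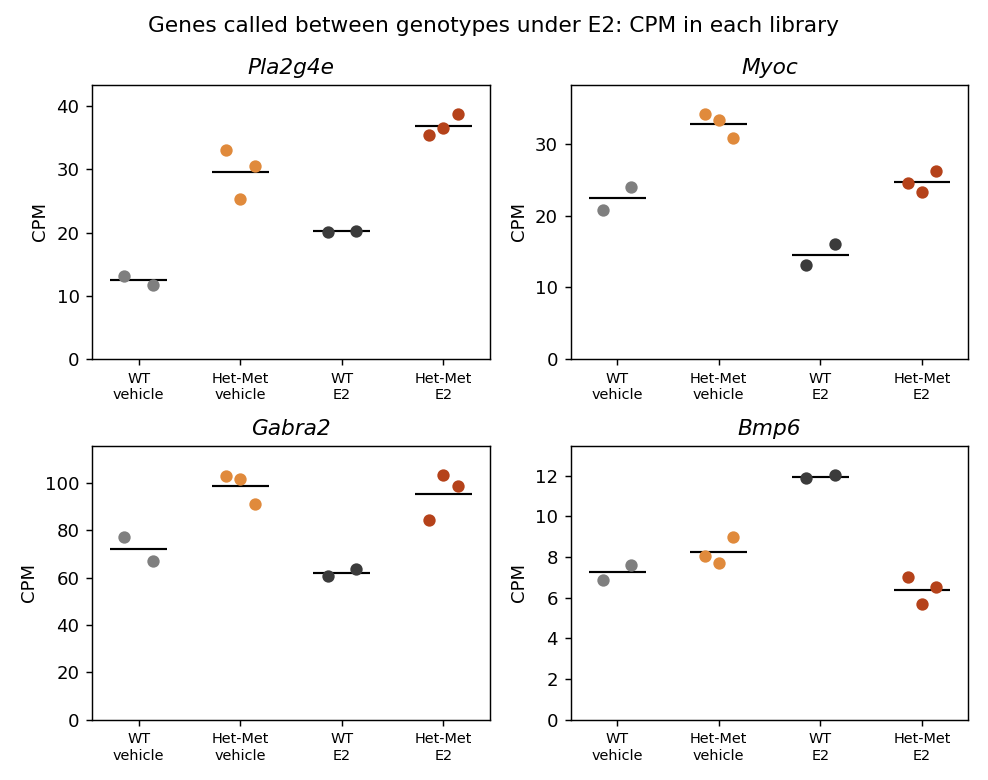
CPM of the 4 genes called between genotypes under E2, with 1 point per library (2 WT and 3 Het-Met in each treatment) and a line at the group mean. Under E2 the Het-Met points of Pla2g4e (35.4 to 38.7 CPM), Myoc and Gabra2 lie above both WT points, and those of Bmp6 (5.67 to 6.998 CPM) lie below.

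These 4 genes are on chromosome 2 (Pla2g4e, 120166412 to 120245335), chromosome 1 (Myoc, 162639155 to 162649693), chromosome 5 (Gabra2, 70957597 to 71095849) and chromosome 13 (Bmp6, 38345107 to 38500302) of mm10. All 4 calls were also made by edgeR's quasi-likelihood test and by DESeq2 on the recovered reads, which called 14 and 29 genes. With no filter on low genes limma called 0 genes and with quantile normalization 1. Leaving out WT E2 library 1, WT E2 library 2 or Het-Met E2 library 2 gave 0 calls, and leaving out Het-Met E2 library 1 gave 45. The count was 9 without either WT vehicle library and 1 without Het-Met vehicle library 2. With the choroid plexus level of each library as a covariate 0 genes were called, and the log2 fold changes were then 0.80 for Pla2g4e, 0.78 for Myoc, 0.41 for Gabra2 and -0.72 for Bmp6. Beyond this covariate, the part of choroid plexus RNA in these differences was not tested.

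The GABA-A receptor, phospholipase and BMP genes around these calls were read as lists. Over all genes tested the median log2 fold change under E2 was 0.03. Of 14 GABA-A subunit genes, 3 were higher and 2 lower at an unadjusted p under 0.05 (limma), with a list median of -0.01. Over all genes tested 6.29% were higher and 5.36% lower at that p. Without WT E2 library 1 the GABA-A counts were 1 higher and 0 lower, and with the choroid plexus covariate 1 and 1. Beside Gabra2, the delta subunit gene Gabrd was higher (21.0 and 19.9 CPM in WT, 23.8, 25.5 and 26.4 CPM in Het-Met), as was Gabrr2, and both were chosen after their values were seen. The beta subunit gene Gabrb1 had a log2 fold change of -0.42 and the gamma subunit gene Gabrg3 of -0.58. Of 26 genes of BMP signalling, 0 were higher and 4 lower, and 3 of the lower genes were among the 6 ligands. The BMP counts turned to 2 higher and 1 lower without WT E2 library 2, and were 2 and 5 without either WT vehicle library, 1 and 2 without Het-Met E2 library 2, 0 and 2 without WT E2 library 1 or Het-Met E2 library 3, and 0 and 1 with the covariate. Bmp5 had a log2 fold change of -0.53 with overlapping libraries, and the shared effector Smad4 one of -0.20 without overlap. Of 24 phospholipase A2 and eicosanoid genes, 2 were higher (Pla2g4e and Daglb, an endocannabinoid-producing lipase gene, 0.19) and 0 were lower, with a list median of 0.09. The phospholipase counts were 1 higher and 0 lower without WT E2 library 1, WT E2 library 2 or Het-Met E2 library 3, and 1 and 1 without Het-Met E2 library 1 or with the covariate.

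The 10 largest positive and 10 largest negative differences under E2 were taken among genes with an unadjusted p under 0.05, at least 2 CPM and no overlap between the libraries of the genotypes. Without a limit on p, 3180 genes (21.1%) were higher and 2222 (14.7%) lower in every Het-Met than in every WT library. The higher group held 8 genes beside Pla2g4e and Myoc, and a shared function among them was not tested. Rpl35a, a ribosomal protein gene, had 4.26 and 5.29 CPM in WT and 8.07, 5.39 and 19.2 CPM in Het-Met mice. Rps25, also ribosomal, had 8.93 and 9.33 CPM in WT and 10.2, 13.6 and 25.6 CPM in Het-Met mice. H3f3a, which encodes histone H3.3, had 6.78 and 6.62 CPM in WT and 9.15, 8.90 and 20.7 CPM in Het-Met mice. Het-Met library 3 was the highest for each of them, and these genes have many near-identical copies that can share reads, so their levels are uncertain. Leaving out 1 library gave log2 fold changes from 0.44 to 1.31 for Rpl35a, from 0.35 to 0.99 for Rps25 and from 0.40 to 0.99 for H3f3a. The same library was highest for Snrpg, a core spliceosomal protein gene (5.03 CPM against 1.76 and 2.86 CPM in the other Het-Met libraries, log2 fold change 0.38 to 1.02 with 1 library left out), and for Sarnp, an RNA export gene (6.21 against 4.16 and 4.01 CPM). The rest were Tnnt2, the cardiac troponin T gene (log2 fold change 0.89), the meiosis gene Mei1 (0.77) and the prostaglandin E2 receptor gene Ptger3 (0.75). Het-Met library 1 was the highest for Tnnt2, with 6.26 CPM against 3.09 and 4.27 CPM in the other libraries of its group. Adjusted p for the 8 genes of this group other than Pla2g4e and Myoc lay between 0.340 and 0.389 (limma).

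The lower group was led by Capn11, a calpain protease gene, with 5.88 and 11.8 CPM in WT and 0.391, 1.15 and 3.60 CPM in Het-Met mice under E2. Its log2 fold change was -2.28 (SE 0.46, limma adjusted p = 0.130). The other 9 were Ttr, Tmem72, F5, Cldn2, Kcne2, Slc4a5, Folr1, Prlr and Aqp1, of which 8 belong to the choroid plexus list and Cldn2 encodes a tight junction protein of that epithelium. Their log2 fold changes ran from -2.05 for Ttr to -1.58 for Aqp1.

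The choroid plexus is the epithelium in the ventricles that secretes cerebrospinal fluid, and the ventral hippocampus borders the temporal horn where it lies. In bulk tissue fewer cells of a type and less RNA per cell cannot be told apart. All 18 of its 18 tested markers were lower in Het-Met mice under E2 at an unadjusted p under 0.05 (limma), against 5.36% of all genes tested, with a median log2 fold change of -1.50, and 0 passed the adjusted p (smallest 0.316). Ttr, which encodes the thyroid hormone carrier of this epithelium, had 2205 and 1687 CPM in WT and 1369.9, 362 and 204 CPM in Het-Met mice. F5, coagulation factor V, had 51.8 and 29.2 CPM in WT and 25.8, 6.27 and 5.74 CPM in Het-Met mice. Folr1, the folate receptor, had 13.999 and 11.7 CPM in WT and 9.25, 2.49 and 1.71 CPM in Het-Met mice. Library 1 was the highest Het-Met library for each of these genes. Aqp1, a water channel, Kcne2, a potassium channel subunit, and Slc4a5, a bicarbonate transporter, had the same order of libraries. Clic6 (-1.296) and Slc13a4, a sulfate transporter gene (-0.70), had the smallest p of the list beside Prlr, the prolactin receptor (-1.68). Without WT E2 library 1 the count at an unadjusted p under 0.05 was 10 of 18.

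Under vehicle the direction was the opposite. The 18 markers summed to 378 and 1655 CPM in WT and to 4163, 2170.1 and 2795 CPM in Het-Met mice, with a median log2 fold change of 1.32, and 17 of 18 were higher at an unadjusted p under 0.05 (limma), against 5.85% of all genes tested. WT E2 and Het-Met vehicle libraries were thus high for these genes, and WT vehicle libraries and 2 of 3 Het-Met E2 libraries were low.

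Ependymal cells line the ventricles and carry motile cilia. Of 11 ependymal markers, 7 were lower in Het-Met mice under E2 at an unadjusted p under 0.05 (limma) and 0 were higher, against 5.36% and 6.29% of all genes tested, with a median log2 fold change of -0.69. The list summed to 61.5 and 57.5 CPM in WT and to 37.3, 36.7 and 43.2 CPM in Het-Met mice. Het-Met library 1, the highest for choroid plexus markers, was not the highest of its group here. Foxj1, the transcription factor that directs motile cilium formation, had 15.7 and 13.9 CPM in WT and 10.4, 7.88 and 8.35 CPM in Het-Met mice (log2 fold change -0.71, limma adjusted p = 0.0813). Hydin, a component of the central pair apparatus of cilia, had 6.24 and 6.79 CPM in WT and 3.62, 3.13 and 3.65 CPM in Het-Met mice (log2 fold change -0.82, limma adjusted p = 0.0714). Dnah11, an axonemal dynein heavy chain gene, had 3.68 and 3.57 CPM in WT and 1.76, 1.38 and 1.66 CPM in Het-Met mice (log2 fold change -0.98). For these 3 genes each genotype formed a narrow group with no overlap. Under vehicle the list median was 0.29, with 4 of 11 higher (5.85% of all genes tested). Without WT E2 library 1 the count under E2 was 4 of 11, and with the choroid plexus covariate it was 7 of 11 with a median of -0.70.

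**Figure D2:**
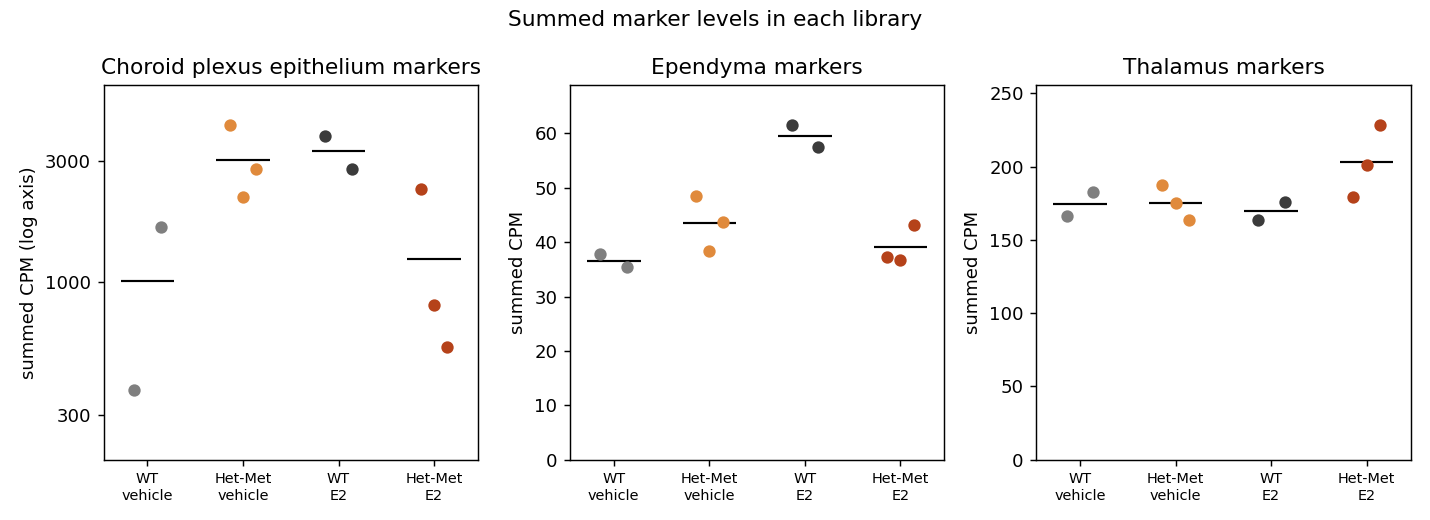
Summed CPM of choroid plexus (log axis), ependymal and thalamic markers, with 1 point per library in the 4 groups and a line at the group mean. Choroid plexus and ependymal sums are higher in WT than in Het-Met libraries under E2 (3764 and 2801 against 2332, 818 and 557 CPM for choroid plexus), and lower under vehicle.

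Ependymal genes share a known regulator family, and 7 of the 11 were lower under E2 at an unadjusted p under 0.05. Their promoters were therefore read. Transcription factors of the RFX family bind the X-box of ciliary genes, and the letters GTTGCC, its core on either strand, were searched in the 250 bases before each RefSeq gene start (GRCm38.p6). Of the 9 ependymal genes with such a window 5 held these letters (55.6%), against 11.8% of the 27025 genes with a window and 10.4% of the 32851 windows. The same letters were in 4 of 13 choroid plexus genes and 1 of 15 immediate-early genes. The full X-box, in either of 2 forms, was in 0 of the 9 ependymal genes, and the forkhead core TGTTTAC and the OTX core TAATCC were in 1 of 9 each, against 3.54% and 7.21% of all genes with a window. These were among 10 motifs searched, all chosen with the results known, and a match is a description of the sequence only. The windows of the 3 of these 5 genes that were lower at an unadjusted p under 0.05 are shown, with the matched letters or their reverse complement in capitals. They lie at chr8:110266727-110266976 (Hydin, plus strand), chr8:116504765-116505014 (Dynlrb2, plus strand) and chr1:69826720-69826969 (Spag16, plus strand).
Hydin: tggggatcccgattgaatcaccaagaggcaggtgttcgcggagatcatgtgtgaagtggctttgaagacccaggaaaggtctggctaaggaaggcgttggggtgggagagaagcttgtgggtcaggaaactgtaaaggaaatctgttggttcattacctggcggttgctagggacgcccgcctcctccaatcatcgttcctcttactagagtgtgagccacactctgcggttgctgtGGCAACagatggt
Dynlrb2: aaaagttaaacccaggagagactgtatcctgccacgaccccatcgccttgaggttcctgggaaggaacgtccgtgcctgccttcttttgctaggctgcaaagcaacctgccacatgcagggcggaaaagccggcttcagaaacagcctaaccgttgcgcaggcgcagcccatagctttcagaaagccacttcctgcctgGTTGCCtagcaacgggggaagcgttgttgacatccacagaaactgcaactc
Spag16: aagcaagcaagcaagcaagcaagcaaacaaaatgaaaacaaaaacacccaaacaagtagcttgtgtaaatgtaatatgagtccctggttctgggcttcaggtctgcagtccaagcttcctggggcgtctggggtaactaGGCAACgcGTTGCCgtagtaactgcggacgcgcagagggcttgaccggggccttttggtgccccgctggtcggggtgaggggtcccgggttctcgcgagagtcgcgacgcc
The match starts 13 bases before the start of Hydin and 51 bases before that of Dynlrb2, and Spag16 holds 2 matches, 1 on each strand. Dynlrb2, a dynein light chain gene, had 2.33 and 2.41 CPM in WT and 0.979, 1.52 and 1.61 CPM in Het-Met mice under E2 (log2 fold change -0.63). Spag16, another central pair gene, had 3.95 and 2.58 CPM in WT and 2.20, 1.06 and 1.33 CPM in Het-Met mice (log2 fold change -0.91). Both were chosen after their values were seen.

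Immediate-early genes are switched on within minutes of neuronal activity, and many encode transcription factors. All 19 had a negative log2 fold change under E2, and 11 were lower at an unadjusted p under 0.05 (limma), against 5.36% of all genes tested. The list median was -0.37, compared with -0.15 under vehicle, where 2 of 19 were lower (4.83% of all genes tested), and 0 passed the adjusted p under E2 (smallest 0.314). Of the 13 transcription factor genes 8 were lower, and of the 6 effector genes 3. Egr2, a zinc finger factor, had 2.42 and 4.21 CPM in WT and 1.57, 0.968 and 0.332 CPM in Het-Met mice under E2, a log2 fold change of -1.45 (SE 0.34). Fosb, an AP-1 factor, had 11.6 and 13.1 CPM in WT and 8.12, 7.51 and 8.30 CPM in Het-Met mice (-0.60). Nr4a3, an orphan nuclear receptor, had 111 and 124 CPM in WT and 98.3, 107 and 87.5 CPM in Het-Met mice (-0.27). In these 3 genes, and in 8 of the 19, every Het-Met library was below both WT libraries, as it was in 14.7% of all genes tested.

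Fos, Egr1 and Arc, named after their values were seen, overlapped between genotypes. Fos had 9.96 and 17.8 CPM in WT and 10.96, 6.59 and 3.70 CPM in Het-Met mice under E2. WT library 2 was the highest of these 5 libraries and Het-Met library 3 the lowest, as they also were for Arc (148 and 56.6 CPM) and Egr1 (157 and 75.5 CPM). Without WT E2 library 2 the count of lower genes was 2 of 19 with a median of -0.22, and without Het-Met E2 library 3 it was 6 of 19 with a median of -0.25. With the choroid plexus covariate it was 2 of 19 with a median of -0.20. Of the Egr genes the study singles out, Egr4 had 15.8 and 20.03 CPM in WT and 14.3, 13.1 and 8.77 CPM in Het-Met mice (log2 fold change -0.57, limma adjusted p = 0.342). Its log2 fold change ran from -0.73 to -0.36 when 1 library was left out. Egr3 had 111 and 121 CPM in WT and 110.0, 109 and 111 CPM in Het-Met mice (-0.08, limma adjusted p = 0.761).

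**Figure D3:**
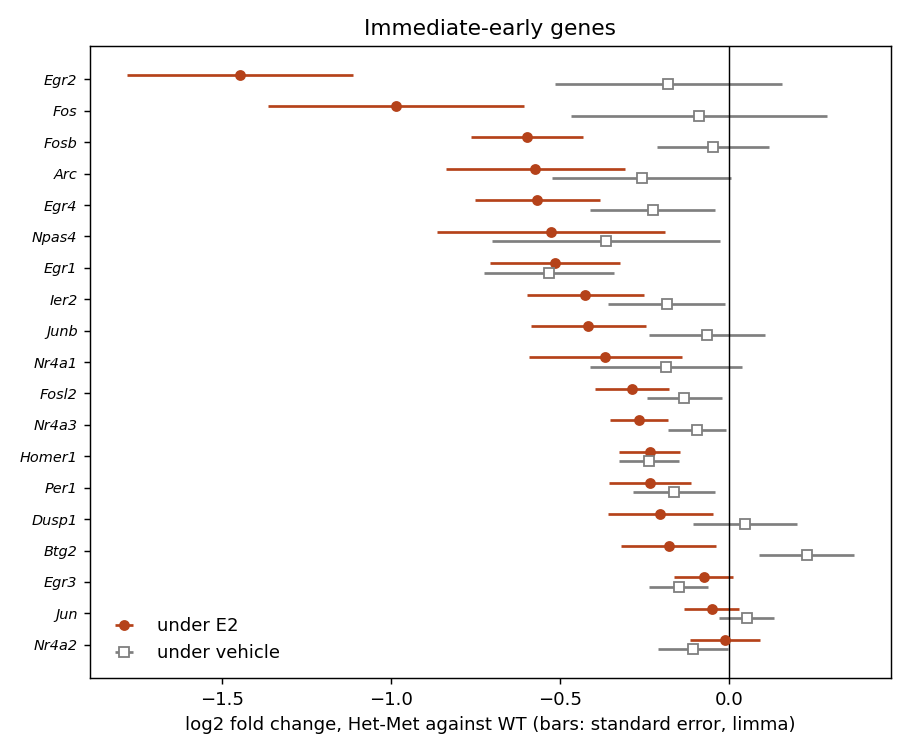
Log2 fold change of Het-Met against WT for the 19 immediate-early genes under E2 (filled circles) and under vehicle (open squares), with bars for the standard error from limma. All 19 circles lie left of 0, from Egr2 at -1.45 to Nr4a2 at -0.01.

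Serum response factor binds CArG boxes in the promoters of several of these genes. A form of this box that is its own reverse complement was found before 3 of the annotated starts of Egr2 and in 1 of the 15 immediate-early genes with a window, against 0.0740% of all genes with a window. The Egr2 window at chr10:67537619-67537868 (plus strand, GRCm38.p6) is shown because this gene had the largest difference of the list, with the motif in capitals 72 bases before the start.
Egr2: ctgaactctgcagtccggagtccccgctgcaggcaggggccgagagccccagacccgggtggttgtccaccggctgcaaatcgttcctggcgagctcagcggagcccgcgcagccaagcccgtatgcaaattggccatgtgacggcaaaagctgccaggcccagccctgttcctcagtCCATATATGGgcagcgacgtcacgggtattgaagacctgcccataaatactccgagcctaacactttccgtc
The cAMP response element TGACGTCA was in 2 of the 15 genes, Btg2 and Dusp1, against 1.77% of all genes with a window, and neither of these was lower at an unadjusted p under 0.05. The palindromic estrogen response element was in 0 of the 4 called genes and in 0.0666% of all genes with a window, which says only that these letters are not in those 250 bases.

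Estrogen and neurotrophin genes were examined by role. Of 14 genes of estrogen signalling 0 were higher and 3 lower at an unadjusted p under 0.05 (limma), all among the 6 cofactors (5.36% of all genes tested were lower), and the list median was -0.17 under E2 and -0.14 under vehicle. Nrip1, a corepressor of estrogen receptors, had 26.6 and 27.9 CPM in WT and 19.9, 20.6 and 16.2 CPM in Het-Met mice under E2 (log2 fold change -0.53). The coactivator genes Ncoa1 and Ncoa2 both had a log2 fold change of -0.18. The count of lower estrogen genes was 0 without WT E2 library 2, 1 without Het-Met E2 library 2 or with the choroid plexus covariate, and 2 without WT E2 library 1 or Het-Met E2 library 1. Esr1, the main estrogen receptor gene, had 6.01 and 6.02 CPM in WT and 3.82, 3.23 and 7.49 CPM in Het-Met mice, so that the genotypes overlapped (named after its values were seen). Of 15 neurotrophin genes 1 was higher and 3 lower, and with the covariate 0 and 1. The higher count was 0 without WT E2 library 1 and 2 without Het-Met E2 library 2, and the lower count was 5 without Het-Met vehicle library 1 and 2 without WT E2 library 2 or Het-Met E2 library 3. Ntf3, the gene of neurotrophin-3, had 5.34 and 6.23 CPM in WT and 7.98, 8.53 and 7.40 CPM in Het-Met mice under E2 (log2 fold change 0.43, limma adjusted p = 0.335), and 0.85 on that scale under vehicle. Ngfr, the pan-neurotrophin receptor gene, had 3.14 and 3.70 CPM in WT and 2.15, 2.30 and 2.42 CPM in Het-Met mice (-0.49). Sorl1, a sorting receptor gene, had 209 and 189 CPM in WT and 144, 147 and 107 CPM in Het-Met mice (-0.60). In Nrip1, Ntf3, Ngfr and Sorl1 the libraries of the 2 genotypes did not overlap.

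Receptors for glutamate and serotonin and genes of the stress axis were counted at an unadjusted p under 0.05 (limma), at which 6.29% of all genes tested were higher and 5.36% lower. Of 11 AMPA and NMDA receptor genes 0 were higher and 2 lower, the NMDA subunit genes Grin2b (-1.09) and Grin2a (-0.71). Grin2b had 88.2 and 49.3 CPM in WT and 42.4, 29.7 and 23.0 CPM in Het-Met mice under E2, and it ran from 22.4 to 69.3 CPM under vehicle. Leaving out 1 library gave log2 fold changes from -1.51 to -0.67 for Grin2b and from -0.93 to -0.46 for Grin2a. The count for this list was 0 without WT E2 library 1 or with the choroid plexus covariate, and 1 without Het-Met E2 library 3. Of 14 kainate, delta and metabotropic glutamate receptor genes 2 were higher and 1 lower, with a median of -0.02, and both counts were 0 without WT E2 library 1 or with the covariate. The AMPA subunit gene Gria2 had 908 and 993 CPM in WT and 941, 933 and 803 CPM in Het-Met mice, with a log2 fold change of -0.09 (SE 0.08) that was 0.01 with the gene length trend removed. Of 11 serotonin receptor genes 3 were lower, Htr2c (-0.48), Htr1b (-0.67) and Htr2a (-0.45), and 3 were lower with the covariate and 2 without any 1 of the E2 libraries. Htr1b had 3.10 and 1.72 CPM in WT and 1.13, 1.38 and 1.33 CPM in Het-Met mice, and its log2 fold change ran from -1.02 to -0.32 when 1 library was left out. Htr2c, which is also abundant in choroid plexus epithelium, had 83.1 and 88.4 CPM in WT and 62.5, 63.2 and 58.9 CPM in Het-Met mice. Among 10 stress axis genes 1 was higher and 3 lower, and the lower genes numbered 0 without WT E2 library 2 or with the covariate, and 1 without WT E2 library 1 or Het-Met E2 library 3. Crhr1, the receptor of corticotropin-releasing hormone, had 12.7 and 12.2 CPM in WT and 17.3, 15.5 and 17.8 CPM in Het-Met mice (0.42). Crhbp, whose product binds and sequesters that hormone, had 30.4 and 34.4 CPM in WT and 25.7, 24.7 and 23.1 CPM in Het-Met mice (-0.40), and the mineralocorticoid receptor gene Nr3c2 had a log2 fold change of -0.35. The libraries did not overlap for any of these 3 genes.

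Of 36 potassium channel genes 1 was higher and 9 lower under E2 at an unadjusted p under 0.05 (limma), against 6.29% and 5.36% of all genes tested. Their median was -0.08 under E2 and -0.14 under vehicle, where 10 were lower, against 4.83% of all genes tested. Kcnma1, the large-conductance calcium-activated channel, had 124 and 118 CPM in WT and 97.9, 85.6 and 81.1 CPM in Het-Met mice (-0.46). Kcna3 had 5.83 and 6.88 CPM in WT and 3.52, 3.92 and 2.94 CPM in Het-Met mice (-0.79), and Kcnq3, a subunit of the M-current channel, a log2 fold change of -0.61. Without WT E2 library 1 the count of lower genes was 3 of 36, without Het-Met E2 library 2 it was 5, and with the choroid plexus covariate it was 2. Of 16 voltage-gated sodium and calcium channel genes 1 was higher and 4 lower (median -0.07), and both counts were 0 without WT E2 library 1. With the gene length trend removed the counts were 1 higher and 0 lower, and the median turned to 0.01. Of 28 postsynaptic scaffold and adhesion genes 0 were higher and 4 lower (median -0.09), and the lower count was 0 without WT E2 library 1 or with the covariate and 7 without Het-Met vehicle library 1 or Het-Met E2 library 1. Of 31 presynaptic release genes 1 was higher and 5 lower, among them the active zone scaffolds Pclo (-0.23) and Bsn (-0.26), and the list median was -0.03. Pclo ran from -0.31 to -0.14 and Bsn from -0.33 to -0.19 when 1 library was left out. Without overlap between genotypes 11 of the 31 were higher and 8 lower, against 21.1% and 14.7% of all genes tested. The lower release genes numbered 0 with the covariate, 1 without WT E2 library 1 and 2 without WT E2 library 2, Het-Met E2 library 2 or Het-Met E2 library 3.

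Genes of protein synthesis and respiration were more often higher than lower in Het-Met mice at an unadjusted p under 0.05 (limma), at which 6.29% of all genes tested were higher and 5.36% lower. Of 72 cytosolic ribosomal protein genes 19 were higher and 1 lower, with a median of 0.19 under E2. Their median under vehicle was 0.20, and 18 were higher there, against 5.85% of all genes tested. Rpl23 had 48.4 and 52.6 CPM in WT and 64.0, 62.6 and 62.1 CPM in Het-Met mice (0.31), and Rps19 had 7.63 and 8.85 CPM in WT and 10.8, 10.8 and 16.1 CPM in Het-Met mice (0.56). Of 79 nuclear-encoded respiratory chain genes 21 were higher and 0 lower, with a median of 0.17 under E2. Their median under vehicle was 0.18, and 26 were higher there, against the same 5.85%. Ndufb9, a complex I subunit, had 110.1 and 110.0 CPM in WT and 132, 146 and 129.8 CPM in Het-Met mice (0.30). The complex V subunit gene Atp5k had a log2 fold change of 0.39 and the complex IV subunit gene Cox7b one of 0.30. Both lists thus had the same sign and about the same size in both treatments, which do not share libraries. Under vehicle the respiratory list summed to 8225 and 8179 CPM in WT and to 10078, 8882 and 8263 CPM in Het-Met mice. Het-Met vehicle library 1 was also the highest for ribosomal genes, with 3355 CPM against 2972 and 2970 CPM in its group. The part of this library in the size under vehicle was not tested. None of these genes passed the adjusted p under E2 (smallest 0.317 and 0.340 from limma). Ribosomal counts were 11, 6 and 8 without WT E2 library 1, WT E2 library 2 and Het-Met E2 library 3. They were 26 without Het-Met E2 library 1 and 23 without Het-Met vehicle library 1. Respiratory counts were 4, 5, 8 and 12 without WT E2 libraries 1 and 2 and Het-Met E2 libraries 2 and 3, and 34 without Het-Met vehicle library 1. With the choroid plexus covariate 2 ribosomal genes (median 0.12) and 4 respiratory chain genes (median 0.14) were higher.

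The members of both lists are short transcripts, and transcript length moved with the difference between genotypes. The 949 genes higher in Het-Met mice under E2 had a median exonic length of 3029 bases and the 809 lower genes one of 7163 bases, against 4436 bases for all genes tested. Among the 344 genes of up to 1000 bases 15.1% were higher and 1.74% lower, and among the 2679 genes over 8000 bases 2.91% were higher and 12.8% lower. The median log2 fold change ran from 0.12 in the shortest class to -0.05 in the longest under E2, and from 0.15 to -0.08 under vehicle. After removal of the length trend in each library, 10 ribosomal and 8 respiratory chain genes were higher, with medians of 0.13 and 0.09, and 7 potassium channel genes were lower, with a median of -0.05. At that setting 0 voltage-gated sodium and calcium channel genes were lower, with a median of 0.01. The lower count was also 0 for histone H3K4 methyltransferase genes (median 0.03), and 1 for postsynaptic scaffold and adhesion genes (median -0.09). RNA integrity was not in the values used here, and the part of length in these differences was not tested further.

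**Figure D4:**
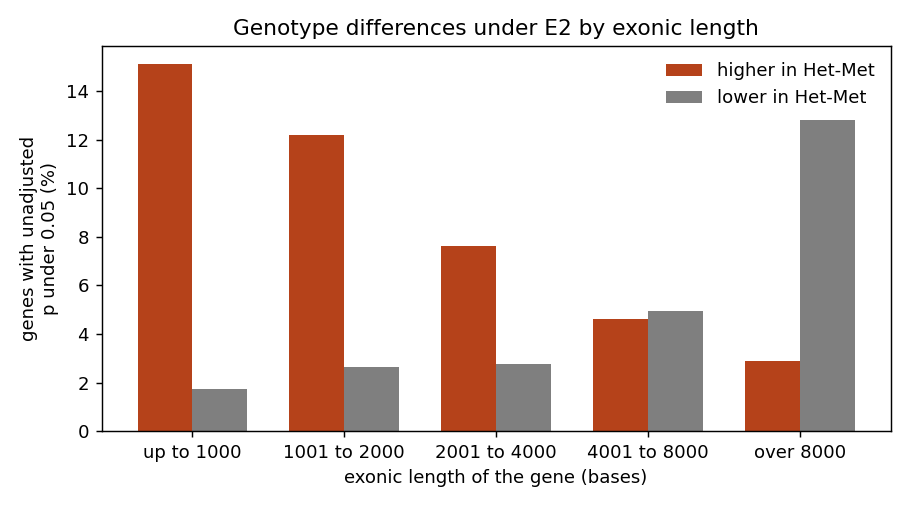
Share of genes higher or lower in Het-Met mice under E2 at an unadjusted p under 0.05 (limma), as bars by class of exonic length in bases. Higher genes outnumber lower genes among genes of up to 1000 bases (15.1% against 1.74%), and lower genes outnumber higher genes over 8000 bases (12.8% against 2.91%).

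Chromatin genes, the subject of the study's later experiments, were counted at the same unadjusted p, at which 6.29% of all genes tested were higher and 5.36% lower. In the list for the ESC/E(Z) complex (13 tested), a histone methylating complex with members known from earlier work that the study took up after its sequencing of these samples, 1 was higher and 0 lower, with a median of 0.09. The gene was Mtf2, a Polycomb accessory subunit, with 58.2 and 60.8 CPM in WT and 79.8, 69.1 and 67.8 CPM in Het-Met mice (0.27). The count was 0 without WT E2 library 1 and 2 with the choroid plexus covariate. Mtf2 is also among the 9 epigenetic genes that the study chose with these samples as shared with human cells, and neither list is independent evidence of its direction. By qRT-PCR in a repeat of the E2 treatment, the study saw no directional change of Mtf2. Of these 9 genes 2 were higher, Mtf2 and the deacetylase gene Hdac6 (0.23), and 1 was lower, the lysine methyltransferase gene Setd7. Setd7 had 258 and 260.1 CPM in WT and 227, 228 and 219 CPM in Het-Met mice (-0.21, limma adjusted p = 0.371). The higher genes of this list numbered 4 without either WT vehicle library, 3 without Het-Met E2 library 2, and 1 without either WT E2 library or with the covariate. The lower genes numbered 3 without Het-Met vehicle library 1, and 0 without either WT E2 library, without Het-Met E2 library 3 or with the covariate. Nat8l, which makes N-acetylaspartate, and Phf10, a chromatin remodeller subunit gene, had log2 fold changes of 0.01 and 0.02, and both changed sign under other settings. Of 18 deacetylase and sirtuin genes 3 were higher and 1 lower, with a median of 0.13. The higher genes numbered 1 without WT E2 library 1, WT E2 library 2 or Het-Met E2 library 3 and with the choroid plexus covariate, and 5 without either WT vehicle library. Hdac8 had a log2 fold change of 0.36 and Hdac4, a class II deacetylase, one of -0.51. Of 9 histone H3K4 methyltransferase genes 0 were higher and 2 lower (median -0.06), and the lower count was 0 without WT E2 library 1 or Het-Met E2 library 3 and with the covariate. With the gene length trend removed the lower count was also 0, and the median turned to 0.03. The median was -0.17 without Het-Met E2 library 1 and turned to 0.02 without Het-Met E2 library 2. Of 28 chromatin remodeller genes 1 was higher and 1 lower (median -0.06), of 12 DNA methylation genes 1 and 1 (median -0.01), and of 18 histone demethylase genes 0 and 0 (median -0.04). With Het-Met E2 library 1 left out the demethylase counts were 1 and 2.

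Markers of other cell types and regions were compared to see what else differed. Of 9 thalamic markers 4 were higher in Het-Met mice under E2 at an unadjusted p under 0.05 (6.29% of all genes tested), with a median of 0.29, and the list summed to 163 and 176 CPM in WT and to 179, 201 and 228 CPM in Het-Met mice. Tcf7l2, a transcription factor of thalamic neurons, had 7.45 and 8.42 CPM in WT and 9.35, 12.03 and 12.8 CPM in Het-Met mice (0.49), and Rgs16 (0.42) and Lef1 (0.41, or 0.21 to 0.60 with 1 library left out) followed. The count was 2 of 9 without WT E2 library 1 and also without Het-Met E2 library 3, and 0 with the choroid plexus covariate (median 0.27). Of 10 neuronal markers 3 were higher, Stmn2 (0.21), Nefm (0.22) and Tubb3 (0.20), and this count was 0 without WT E2 library 1, Het-Met E2 library 2 or Het-Met E2 library 3 and with the covariate, and 1 without WT E2 library 2. Of 22 interferon and MHC class I genes 5 were higher and 0 lower, led by Stat2 (0.29), Psme2 (0.49) and Gbp3 (0.51, or 0.29 to 0.75 with 1 library left out), and the count was 0 without WT E2 library 2, 2 without Het-Met E2 library 2 or with the covariate, and 3 without WT E2 library 1, Het-Met E2 library 1 or Het-Met vehicle library 2. Astrocyte, oligodendrocyte, microglial, endothelial, mural and interneuron lists each had at most 2 genes in either direction and medians between -0.05 and 0.10. Igf2, a growth factor gene of the meninges and choroid plexus, had 239 and 199.9 CPM in WT and 179.6, 123 and 113 CPM in Het-Met mice (-0.69, limma adjusted p = 0.188), while the other 12 meningeal markers were not lower or higher at an unadjusted p under 0.05.

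**Figure D5:**
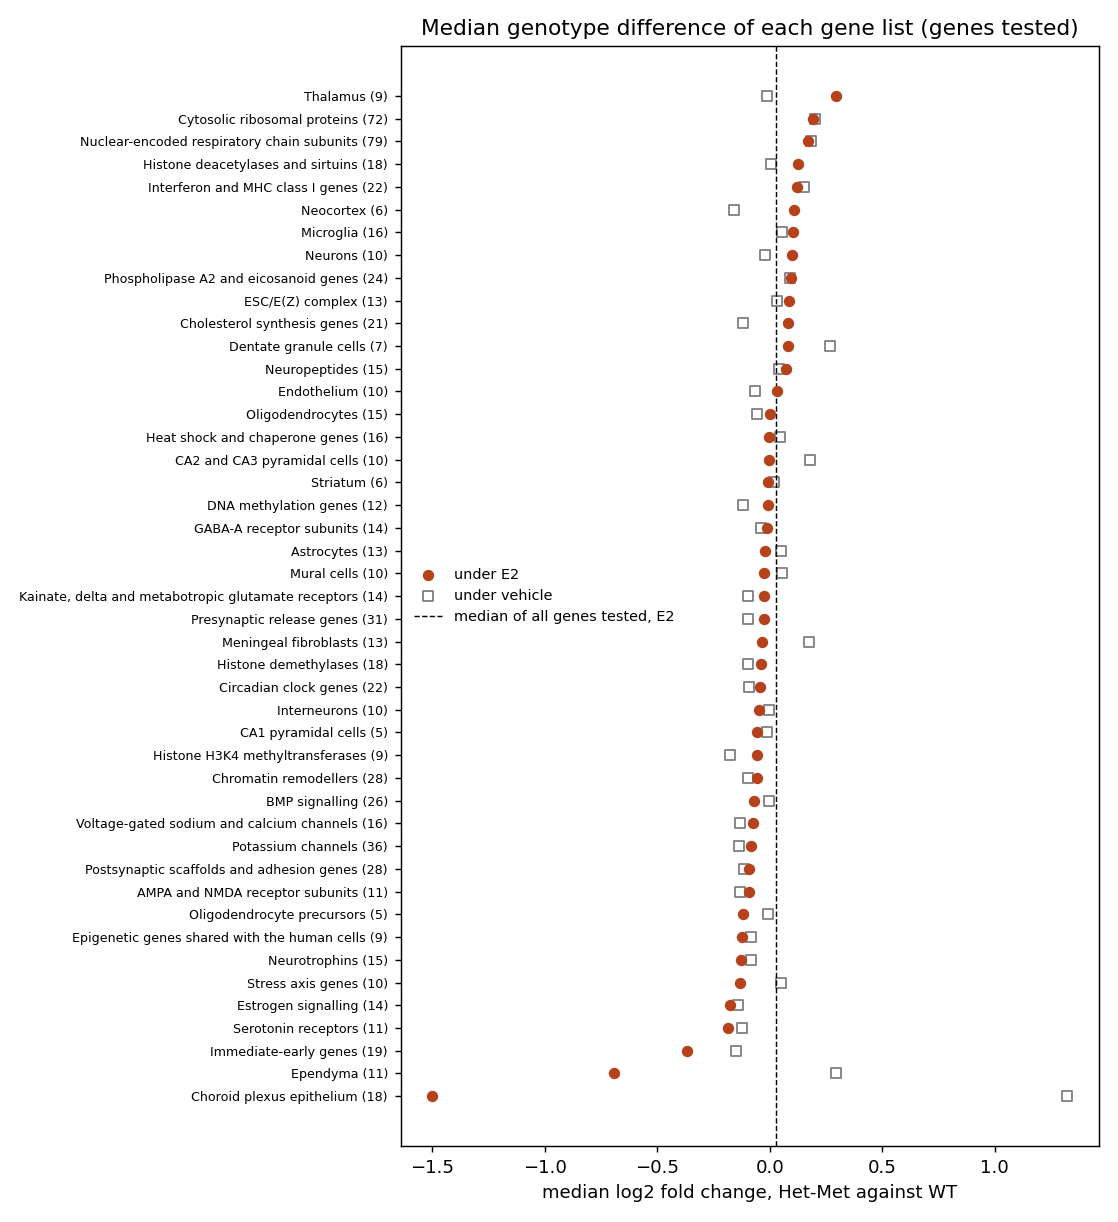
Median log2 fold change of Het-Met against WT for each gene list with at least 5 genes tested (number in brackets), under E2 (filled circles) and vehicle (open squares), with a dashed line at the median of all genes tested under E2 (0.03). Choroid plexus (-1.50 and 1.32) and ependyma (-0.69 and 0.29) lie on opposite sides of 0 in the 2 treatments, and ribosomal and respiratory chain lists lie on the same side.

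Knock-in lines can carry sequence of another strain around the altered gene, so genes near Bdnf were counted. Of 271 genes tested within 20 Mb of Bdnf, 17 were higher and 17 lower at an unadjusted p under 0.05 (12.5%), against 61 higher and 49 lower of the 914 genes on the rest of chromosome 2 (12%) and 11.7% of all genes tested, so that the share near Bdnf was close to both. Genes whose libraries did not overlap in the same direction under both treatments made up 11.4% of the genes near Bdnf, 6.56% of the rest of the chromosome and 7.33% of all genes tested. Cd59a, a complement inhibitor gene 5.56 Mb before Bdnf, had 9.65 and 10.1 CPM in WT and 5.73, 3.41 and 4.93 CPM in Het-Met mice under E2 (log2 fold change -1.02, limma adjusted p = 0.0714). Chrm5, a muscarinic receptor gene 2.75 Mb after it, had 3.19 and 3.65 CPM in WT and 1.47, 1.15 and 2.04 CPM in Het-Met mice (-0.95). The other named neighbours were Gyltl1b (-0.97) and Ankrd63 (-0.40). Under vehicle their log2 fold changes were -0.30 for Cd59a, -0.06 for Chrm5, 0.82 for Gyltl1b and -0.09 for Ankrd63, compared with 1.21 for Pla2g4e.

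The genotype difference under E2 was then set against that under vehicle. Of the 949 genes higher under E2, 134 were higher and 29 lower under vehicle at an unadjusted p under 0.05 (5.85% and 4.83% of all genes tested), and of the 809 lower genes 170 were lower and 71 higher. The difference between the contrasts was tested as the interaction, in which 11 genes (0.0729%) passed the adjusted p and 818 (5.42%) the unadjusted p (limma). In 8 of the 11 the difference was more negative under E2 (0.053%), and in 3 it was more positive (0.0199%). Slc2a12, a glucose transporter gene, had 17.4 and 13.8 CPM in WT and 8.61, 5.16 and 6.45 CPM in Het-Met mice under E2, a log2 fold change of -1.17 against 0.90 under vehicle. Prelp, a matrix proteoglycan gene, had 75.9 and 78.3 CPM in WT and 60.6, 50.4 and 57.5 CPM in Het-Met mice under E2, a log2 fold change of -0.46 against 0.28 under vehicle. Fibcd1, which marks CA1 pyramidal cells, had 202 and 213 CPM in WT and 165, 148 and 164 CPM in Het-Met mice, a log2 fold change of -0.38 against 0.31 under vehicle. In all 3 the genotypes were separate under E2 and the order turned with treatment, an order that passing the interaction test favours. Of the other CA1 markers 0 were lower or higher under E2 at an unadjusted p under 0.05.

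Nrep and Plxdc1 had the opposite interaction and were higher in Het-Met mice under E2. Nrep, the gene of a neuronal regeneration-related protein, had 66.3 and 65.8 CPM in WT and 91.8, 88.4 and 94.6 CPM in Het-Met mice under E2 (log2 fold change 0.47, limma adjusted p = 0.0537) and -0.19 on that scale under vehicle. Plxdc1, a plexin-domain membrane protein gene, had 22.1 and 21.8 CPM in WT and 29.2, 27.9 and 31.4 CPM in Het-Met mice (0.42), and -0.43 under vehicle. For both genes the libraries of a genotype lay close together under E2, and the genotypes did not overlap. Slc2a12, Prelp, Nrep and Plxdc1 were chosen after their values were seen, because they passed this test. With the choroid plexus level as a covariate 0 genes passed the interaction, and the count was 0 or 1 without any one of 8 libraries, 46 without WT vehicle library 3 and 71 without Het-Met E2 library 1.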

How the data were processed

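Total RNA (200 ng per group, per the labels) was sequenced as stranded 75-bp single-end reads from 10 vHpc libraries. Per the labels the authors aligned reads to mm10 with TopHat2, and the notes also name DESeq and DESeq2; versions are not given in the sources used here. The deposited values are CPM, scaled by the authors to reads on genes. Every value was a whole number of reads (100% of genes above 0, tolerance 0.01 reads), 1 read being worth 0.0430 to 0.0505 CPM, so that 3 reads, the least taken as detected, equal 0.129 to 0.151 CPM. This floor covers counting error only.

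Genes averaging 0.5 CPM or more were fitted as log2(CPM + 0.5) with limma 3.58.1 in R 4.3.3, as 4 group means over the 10 libraries with a trended prior (6 residual degrees of freedom). P-values were Benjamini-Hochberg adjusted over all genes, and fold changes on this scale understate those of low genes. The filter ended between Apela (0.500048 CPM) and Msh5 (0.499955 CPM). An exact permutation test of 2 against 3 libraries cannot give a p below 0.1. The labels do not state whether replicates come from separate cohorts, so p-values measure the spread between these pools. Replicates differed beyond counting noise (chi-square per degree of freedom 3.29 to 13.5).

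Named genes were Bdnf and the genes the study names, all called genes, the 10 largest differences each way, up to 3 genes per list and the most abundant marker, and up to 5 genes near Bdnf; others are said to be chosen after their values were seen. Members, lists, motifs and tests were chosen with earlier results of these data known. Alternatives were edgeR 4.0.16 and DESeq2 1.42.0 on the recovered reads, pseudocounts, filters, scalings, a length trend, a choroid plexus covariate, a replicate block and leaving out each library. Scripts were tested on simulated data. Positions and exonic lengths are from GENCODE on mm10 (376 of 24421 symbols unmatched, and 14976 tested genes with a length), and promoters from RefSeq. Results for a few genes are not reported here.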

Additional observations from a re-analysis of the deposited data

Results flagged for a closer look

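In 11 genes the difference between Het-Met and WT mice was not the same under E2 as under vehicle by the interaction test (limma). The change in log2 fold change, E2 minus vehicle, was -4.31 for Capn11, -2.45 for Wdr86, a WD repeat protein gene, -2.07 for Slc2a12 and -0.69 for Fibcd1 (adjusted p = 0.0333 for each, limma). It was -0.74 for Prelp (adjusted p = 0.0393, limma). For Foxj1 (-1.13), Igf2 (-1.23), Wdr63 (-1.92), a WD repeat protein gene of motile cilia, Nrep (0.65) and Plxdc1 (0.84) the adjusted p was 0.0454 (limma). Capn11 was at 0.416 and 0.942 CPM in WT vehicle libraries and at 3.23, 4.14 and 5.43 CPM in Het-Met vehicle libraries, the opposite order to that under E2. All 8 genes with a negative interaction were lower in every Het-Met than in every WT library under E2 (14.7% of all genes tested) and higher under vehicle. They were selected by the interaction test on these same libraries, which favours such an order, so this is not a separate result. The part of choroid plexus and ependymal cells in the interactions was not tested beyond the choroid plexus covariate.

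The summed choroid plexus markers had a ratio of Het-Met to WT means of 0.376 under E2 and of 2.99 under vehicle. For ependymal markers the ratio was 0.657 under E2 and 1.19 under vehicle. In both lists every Het-Met library lay below every WT library under E2 and above every WT library under vehicle. These differences between treatments were not tested for the sums.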

How the results depend on the processing

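The count of genes called under E2, 4, was 696 at an unadjusted p under 0.05 with the fold limit, 8 with a pseudocount of 1, 0 with no filter, 10 with median-of-ratios scaling, 1 with quantile normalization, 14 with the length trend removed, 0 with the choroid plexus covariate, 52 in the 5 E2 libraries alone, 14 with edgeR and 29 with DESeq2. The interaction count, 11, was 597 at the unadjusted p with the fold limit, 0 with no filter, 5 at a mean of at least 2 CPM, 7 with quantile normalization, 0 with the covariate and 37 with DESeq2. Leaving out each library gave 0 to 45 calls under E2 and 0 to 71 for the interaction. The cause of these moves was not tested; the covariate is made of the choroid plexus genes themselves.

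Same-numbered libraries did not deviate together (r from -0.172 to 0.0826 over 12 pairs), so numbers were not taken to pair samples. With the replicate block 2 genes were called under E2 and 18 for the interaction, and 387 with the block on E2 replicates 1 and 2 alone, which leaves 1 residual degree of freedom. Nat8l turned to -0.0112 with the block.

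Near 0, Nat8l turned to -0.0181 with median-of-ratios scaling, -0.0152 with edgeR and -0.0182 with DESeq2, and ran from -0.02295 (without WT E2 library 2) to 0.0349 when libraries were left out. Phf10 turned to -0.00656 with median-of-ratios scaling, -0.0186 with quantile normalization, -0.0333 with the covariate, -0.00136 with edgeR and -0.00423 with DESeq2, and ran from -0.0260 (without Het-Met E2 library 2) to 0.0687 when libraries were left out. Gria2 turned to 0.00783 with the length trend removed. Under quantile normalization 785 genes were higher and 911 lower at an unadjusted p under 0.05. Over all alternatives, 1935 gene values kept direction and side of the threshold, 115 passed it newly, 34 lost it and 13 turned. With 2 WT pools, differences near the spread between libraries were not detectable.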
